A study of Arabidopsis thaliana with 11 samples.

Results

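Proline dehydrogenase and glutamate dehydrogenase catalyze early and late steps of 1 route of amino acid breakdown. The labeled transcripts of ERD5 (AT3G30775, chromosome 3) and GDH2 (AT5G07440, chromosome 5) are described here in cells expressing bZIP1 and in the empty vector control. No enzyme or metabolite was measured, so these transcripts do not measure the route itself. The table of the array platform does not list the probe sets of these genes, so both were found through the probe and gene columns of the study's own list of induced genes. The rule found 2 genes, each read from 1 probe set (257315_at for ERD5 and 250580_at for GDH2), among 19524 features tested. Because the list that names them holds genes the study had already selected on these arrays, their direction is not independent evidence of an effect of bZIP1. The tests below describe the difference on these same arrays. Because of that selection its size may be overstated, and the p-values and intervals are not those of genes chosen beforehand.

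ERD5 encodes a flavoenzyme of the mitochondrion that oxidizes proline and passes the electrons to the respiratory chain. The product is converted to glutamate by a further mitochondrial dehydrogenase. GDH2 encodes the alpha subunit of NAD-dependent glutamate dehydrogenase, which deaminates glutamate to 2-oxoglutarate, a tricarboxylic acid cycle intermediate, and ammonium. Both genes are known to be induced when plants run short of carbon, and group S1 bZIP transcription factors (TFs), to which bZIP1 belongs, are known to activate ERD5. The lists given with the study hold ERD5 among the genes bound by bZIP1 after nuclear import in both ChIP-Seq replications and GDH2 in that of the earlier replication alone.

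All 11 samples were root cell protoplasts of wild-type Arabidopsis thaliana Columbia Col-0. In 6 of them (4tU-bZIP1) the cells carried 35S::GR::bZIP1, in which the constitutive 35S promoter drives bZIP1 fused to a glucocorticoid receptor domain that holds it in the cytoplasm. In the other 5 (4tU-EV) they carried the empty vector pJD385_35S::GR. By the labels, nitrogen as 20 mM KNO3 with 20 mM NH4NO3 was given to both groups for 1 h 40 min, then 35 µM cycloheximide, a translation inhibitor, for 20 min, then 10 µM dexamethasone, which releases the fusion into the nucleus, for 5 h. 1.5 mM 4-thiouracil (4tU) with 0.2 mM uracil was then supplied for 20 min, and the labeled RNA was pulled down and hybridized on ATH1 arrays. No group without nitrogen, without cycloheximide or without dexamethasone was analysed here, so the comparison is of bZIP1 against empty vector under all these treatments. bZIP1 was overexpressed transiently, in protoplasts from whole roots sorted for the transfection marker. Each array is labeled as a biological replicate.

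Replicate 1 of 4tU-bZIP1 was unlike the other arrays. Its median correlation with the other arrays was 0.878, where the other 10 had 0.943 to 0.965, and 6312 features reached an intensity of 32 on it, where the others had 6889 to 7239. Of 10 root cell markers 3 could be matched to a feature. PYK10, an abundant beta-glucosidase of roots, averaged 1662 ± 565 (SD, n = 6) with bZIP1 and 1683 ± 477 (SD, n = 5) with the empty vector. The root hair gene EXPA7 had a median of 4.93 in both groups, and the epidermal gene WER had medians of 18.9 and 7.38, the former in 4tU-bZIP1. WER was matched only through the study's lists of genes selected on these arrays, so it is no neutral marker here. None of these 3 passed the test, which 0.184% of all features passed in either direction, so this is near the background. None of 9 markers of green shoot cells could be matched. In such a mixture of root cells, more cells that transcribe a gene and more transcription per cell cannot be told apart.

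Labeled ERD5 transcript was higher in every array of cells expressing bZIP1 than in any array of the empty vector control. In 4tU-bZIP1 the intensity of ERD5 was 8773, 9620, 8352, 12715, 9961 and 8612 in replicates 1 to 6. In 4tU-EV it was 4225, 3666, 4090, 4353 and 3681 in replicates 1 to 5. The groups did not overlap, and the lowest 4tU-bZIP1 array was at 1.92 times the highest 4tU-EV array. The mean was 9672 ± 1614 (SD, n = 6) against 4003 ± 315 (SD, n = 5). The log2 ratio of the groups for ERD5 was 1.26, with a standard error (SE) of 0.11 and an adjusted p of 0.0020 by limma, which is 2.40-fold with a 95% confidence interval of 2.03 to 2.83. This difference was 6.89 times the pooled SD of the replicates. An exact two-sided permutation test over the 462 divisions of the arrays gave p = 0.0022, the smallest it can give.

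GDH2 was also higher, by a smaller amount. Its intensity in 4tU-bZIP1 was 7673, 8293, 7463, 7377, 6655 and 6718 in replicates 1 to 6. In 4tU-EV it was 4489, 4477, 5044, 5316 and 3518 in replicates 1 to 5. The groups again did not overlap, with the lowest 4tU-bZIP1 array at 1.25 times the highest 4tU-EV array. The mean was 7363 ± 615 (SD, n = 6) against 4569 ± 689.8 (SD, n = 5). For GDH2 the log2 ratio was 0.70 with an SE of 0.10 and an adjusted p of 0.051 by limma, or 1.62-fold with a 95% confidence interval of 1.38 to 1.91. It was 3.94 times the pooled SD of the replicates, and the exact two-sided permutation test gave p = 0.0022, again the smallest possible. The threshold was an adjusted p under 0.1, and 0.164% of all features were called higher and 0.0205% lower by it. Of all features, 0.405% had every 4tU-bZIP1 array above every 4tU-EV array, and 0.451% had every one below. These genes were chosen with such results known, so that both pass adds nothing to either share.

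**Figure D1:**
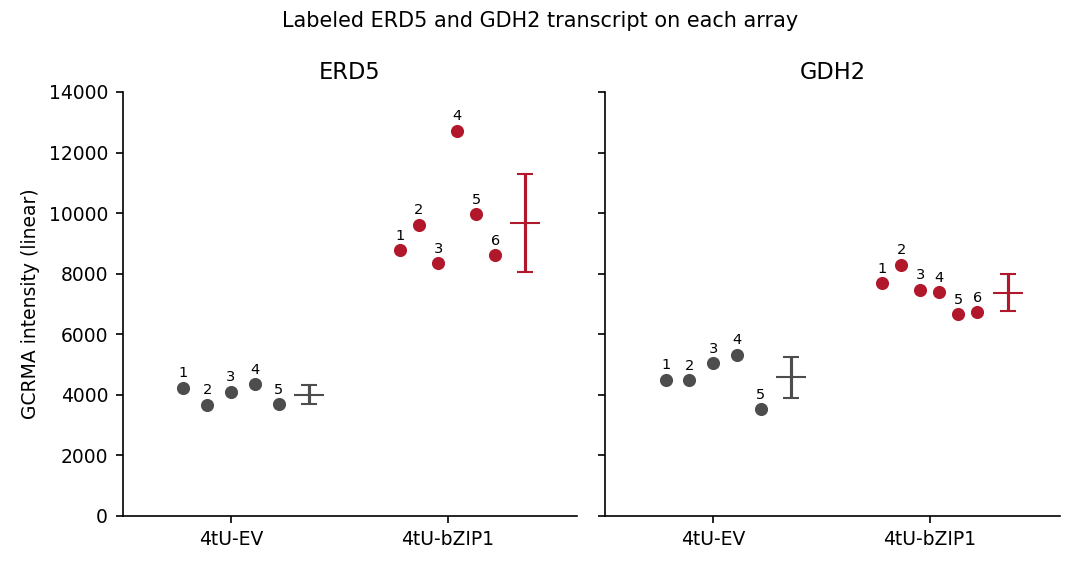
GCRMA intensity (linear axis from 0) of ERD5 and GDH2 on each array, with points numbered by replicate and bars at the mean ± SD of 5 arrays of 4tU-EV and 6 of 4tU-bZIP1. For ERD5 the 4tU-bZIP1 arrays lie between 8352 and 12715 and the 4tU-EV arrays between 3666 and 4353, and for GDH2 these ranges are 6655 to 8293 and 3518 to 5316.

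The intensity of the proline dehydrogenase gene rose more than that of the glutamate dehydrogenase gene. On each array the log2 intensity of GDH2 was subtracted from that of ERD5, which removes whatever scales a whole array, and the resulting differences were compared between groups. They were 0.19, 0.21, 0.16, 0.79, 0.58 and 0.36 in 4tU-bZIP1 replicates 1 to 6 and -0.088, -0.29, -0.30, -0.29 and 0.066 in 4tU-EV replicates 1 to 5. No 4tU-EV array reached the lowest value of 4tU-bZIP1. The change of ERD5 exceeded that of GDH2 by 0.56 on the log2 scale (SE 0.13, exact two-sided permutation p = 0.0022, the smallest possible). The brightness of the probe sets themselves says nothing of which transcript was more abundant. Whether both probe sets follow a change of transcript equally was not tested.

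The replicates of the genes spread in different groups. For ERD5 the SD of log2 values was 0.22 in 4tU-bZIP1 and 0.11 in 4tU-EV, while for GDH2 it was 0.12 and 0.23. The wide group of ERD5 holds replicate 4 of 4tU-bZIP1 at 12715, and that of GDH2 holds replicate 5 of 4tU-EV at 3518. In the other gene, replicate 4 of 4tU-bZIP1 was near the middle of its group at 7377, while replicate 5 of 4tU-EV was again low at 3681, next to the lowest array at 3666. Over all 11 arrays the deviations of the genes from their group means correlated at r = 0.28, with r = 0.74 within the 5 arrays of 4tU-EV and r = 0.021 within the 6 of 4tU-bZIP1. These are descriptions of few arrays that share their normalization. The array that stood apart, 4tU-bZIP1 replicate 1, lay 0.13 below the group mean of ERD5 on the log2 scale and 0.064 above that of GDH2.

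The call of ERD5 held in each of the 11 fits that left out 1 array, with log2 fold changes of 1.18 to 1.30 and adjusted p of 0.0012 to 0.011 from limma. Without 4tU-bZIP1 replicate 4, its highest array, the change of ERD5 was 1.18 with an SE of 0.071, and it then had the smallest p of all features. For GDH2 the fits gave log2 fold changes of 0.61 to 0.76, all in the same direction, and the call ended in 7 of the 11. Those were the fits without 1 of the 4tU-bZIP1 arrays of replicates 1 to 5, and those without 4tU-EV replicate 1 or 2, in which the adjusted p of GDH2 from limma was 0.116 to 0.157. Without 4tU-EV replicate 5, its lowest array, the change of GDH2 was 0.61, with an SE of 0.078 and an adjusted p of 0.027 by limma. The GDH2 call also ended among the 7000 features with a mean log2 intensity of at least 5, where its standard error was 0.19 and its adjusted p was 0.29 from limma. In that fit the SD toward which limma draws each feature was 0.53 on the log2 scale, against 0.11 over all features.

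**Figure D2:**
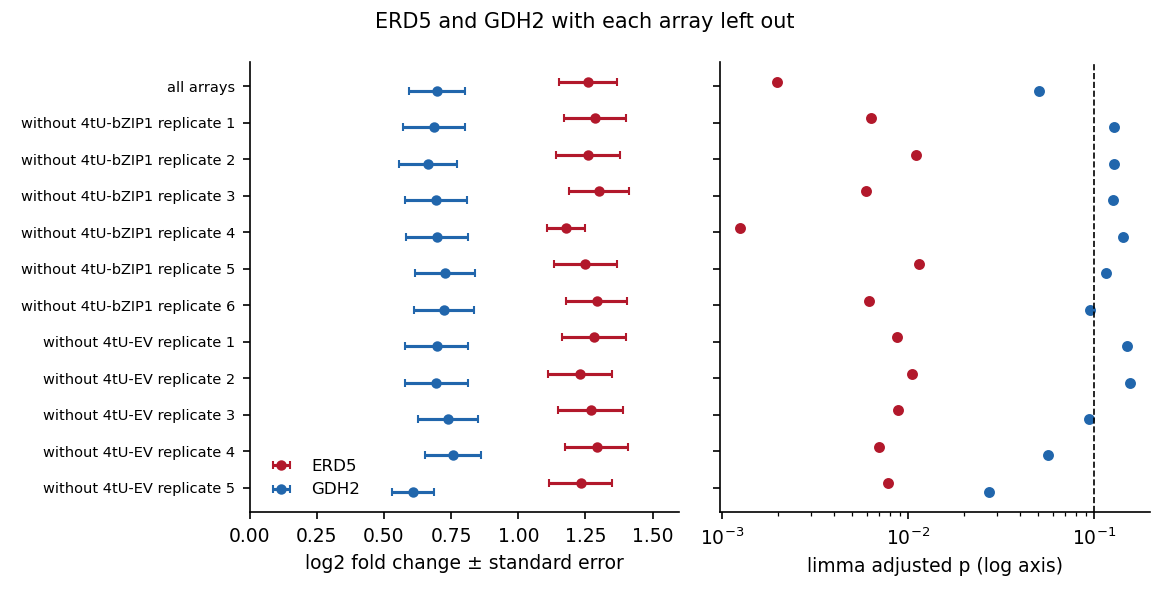
Left, log2 fold change with its SE from limma for ERD5 and GDH2 on all 11 arrays and with each array left out. Right, the adjusted p on a log axis with the threshold of 0.1 dashed. All ERD5 points lie at 0.011 or below, while 7 of the 11 GDH2 fits without 1 array lie above the threshold.

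ERD5 and GDH2 were among the brightest features of the arrays. By mean log2 intensity ERD5 was number 69 and GDH2 number 84 of all features, which leaves 0.348% and 0.425% of features brighter. Of 155 features with a mean log2 intensity of at least 12, 3 (1.94%) were called higher and 0 lower by limma, where 0.184% of all features were called in either direction. Of these 3, ERD5 and GDH2 were chosen with their calls known, and the other is a probe set (248606_at) left without a gene name by the tables used. Among the 106 other features within 0.5 of ERD5 in mean log2 intensity, the quartiles of the changes were -0.16 and 0.032, and the only one called higher was GDH2. Their pooled SD had a median of 0.17, close to the 0.18 of ERD5 and of GDH2. Over all levels of brightness 108 features had a larger log2 fold change than ERD5, of which 23 were called higher. For GDH2 the place by log2 fold change was 618, and by p it was 25.

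**Figure D3:**
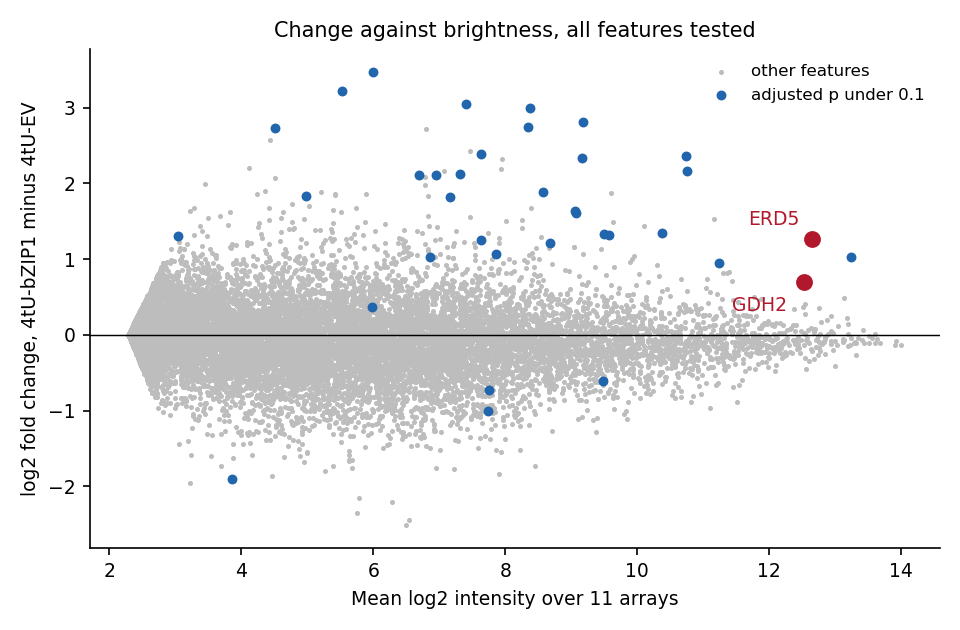
Log2 fold change (4tU-bZIP1 minus 4tU-EV) against mean log2 intensity over 11 arrays for the 19524 features tested, each a point, with those at an adjusted p under 0.1 in blue and ERD5 and GDH2 in red. Both lie at the bright end, at changes of 1.26 and 0.70, above nearly all other features of that brightness.

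The 2 other genes of proline metabolism that could be matched did not pass the test. Since 0.184% of all features were called in either direction by limma, no call in 2 is near the background. Of 12 genes listed, 3 could be matched to a feature, 1 of them ERD5. PDH2 (AT5G38710) encodes the second proline dehydrogenase. Its intensity ranged from 218 to 1248 in 4tU-bZIP1, with a median of 557, and from 307 to 618 in 4tU-EV, with a median of 437. The groups overlapped, and PDH2 differed by 0.27 on average in log2 units, with an SE of 0.40 and an adjusted p of 0.87 by limma. DELTA-OAT (AT5G46180) encodes ornithine aminotransferase, which feeds ornithine into the same intermediate that proline dehydrogenase makes. It ranged from 9.11 to 128 in 4tU-bZIP1 and from 25.8 to 131 in 4tU-EV. The 9.11 was on 4tU-bZIP1 replicate 1, the array that stood apart, and the other arrays of that group were at 37.6 or more. The groups overlapped, with a DELTA-OAT change of -0.55 in log2 units, an SE of 0.68 and an adjusted p of 0.85 by limma. With these errors a change as large as that of ERD5 may not have been detectable. The other 9 genes, among them those for the enzyme that makes glutamate from the product of ERD5 and for the enzymes of proline synthesis, could not be matched and were not analysed here. Of 28 genes of glutamate metabolism 1 was matched, GDH2 itself, so its paralogs GDH1 and GDH3 were not analysed here either.

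The tricarboxylic acid cycle takes up the 2-oxoglutarate that glutamate dehydrogenase releases, and none of its measured genes passed. Of 16 genes 9 were matched, 7 of them with a lower and 2 with a higher mean, and 0 had an unadjusted p under 0.05, where 4.74% of all features did, so that a count of 0 in 9 is near the background. Their log2 fold changes lay between -0.82 and 0.14, with a median of -0.36, where the median of all features was 0.0014 and that of features with a mean log2 intensity of at least 5 was -0.12. The gene at -0.82 (SE 0.92) had an intensity of 10.3 on 4tU-bZIP1 replicate 1, against 222 to 466 on the other arrays of that group. Without 4tU-bZIP1 replicate 1 the median of the 9 was -0.19. Those with the smallest p were the 4 genes matched for the enzyme complex that oxidizes 2-oxoglutarate. OGDH-E1b (AT5G65750) averaged 36.8 ± 9.95 (SD, n = 6) with bZIP1 and 61.5 ± 30.3 (SD, n = 5) with the empty vector. This log2 ratio was -0.68, with an SE of 0.32 and an adjusted p of 0.85 by limma. For OGDH-E2a (AT5G55070), OGDH-E2b (AT4G26910) and OGDH-E1a (AT3G55410) the changes were -0.56, -0.40 and -0.36. On 4tU-bZIP1 replicate 1, the array that stood apart, OGDH-E2a was at 30.5 and OGDH-E2b at 60.8, each below all other arrays. The other 4tU-bZIP1 arrays lay at 59.5 to 298 for OGDH-E2a and at 149 to 323 for OGDH-E2b. For OGDH-E1a and OGDH-E1b replicate 1 was not the lowest array. In all 9 genes the groups overlapped.

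A further 6 enzymes of proline, ornithine, glutamate or glutamine were found by their RefSeq names, after the names in the tables had been seen. GAT1_2.1 (AT1G15040), which encodes a protein like glutamine amidotransferases, rose by 2.36 in log2 units, with an SE of 0.20 and an adjusted p of 0.0020 by limma. The other 5 did not pass, which is near the background, since 0.184% of all features were called in either direction by limma. OTC, which encodes the enzyme that makes citrulline from ornithine, changed by 0.028 in log2 units (SE 0.17), and its arrays lay between 131 and 259 in both groups together. PIP, a proline iminopeptidase gene, GFAT, whose enzyme transfers the amide of glutamine to a sugar, and GSA1, of tetrapyrrole synthesis from glutamate, had changes of -0.31, -0.22 and -0.45. GFAT and GSA1 were dim, with arrays of both groups together at 7.10 to 16.1 and at 8.50 to 64.7. GGCT2;1, a gamma-glutamyl cyclotransferase gene of glutathione turnover, had a change of -1.76, with an SE of 0.70 and an adjusted p of 0.85 by limma. Its 4tU-EV arrays ranged from 104 to 975, and it too was matched only through the study's lists.

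**Figure D4:**
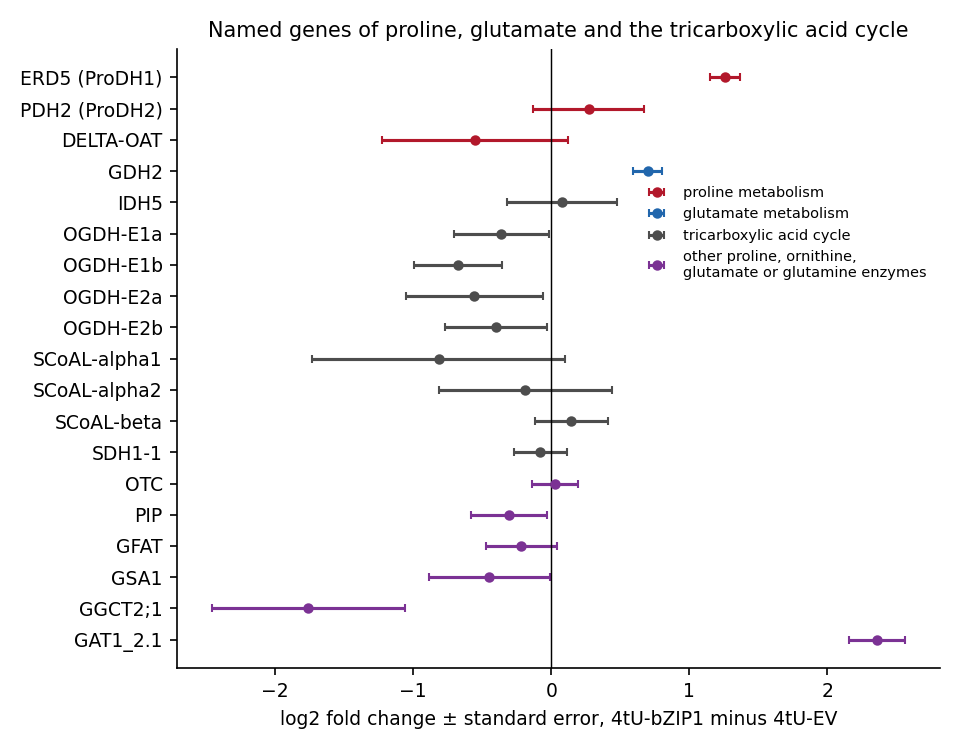
Log2 fold change (4tU-bZIP1 minus 4tU-EV) with its standard error from limma for the matched genes of proline metabolism, glutamate metabolism, the tricarboxylic acid cycle and the 6 further enzymes. ERD5, GDH2 and GAT1_2.1 lie to the right of 0 with narrow bars. The others have wider bars relative to their change and none passed the test.

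Of the bZIP factors of groups C and S1, 2 of 9 were matched and neither passed. With 0.184% of all features called in either direction by limma, this is near the background. bZIP53 averaged 2003 ± 347 (SD, n = 6) with bZIP1 and 2350 ± 188 (SD, n = 5) with the empty vector, and its log2 ratio was -0.24 with an SE of 0.11 and an adjusted p of 0.85 by limma. For bZIP44 it was -0.15 (SE 0.46). bZIP1 itself was among those not matched, so whether its level differed between the arrays of 4tU-bZIP1 was not analysed here.

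The features most like each gene across the 11 arrays were not the same. Likeness was measured as Pearson's r of log2 values among the 7000 features with a mean log2 intensity of at least 5, and since the arrays form separate groups it reflects mostly the difference between them. The 5 features nearest to ERD5 had r of 0.95 to 0.98. One of them carries a gene name, the kelch repeat gene AT1G67480 (r = 0.96), and the nearest was the probe set 252367_at (r = 0.98), which is without one. Nearest to GDH2 were DIN10 (r = 0.97), a raffinose synthase family gene induced in darkness, BCAT-2 (r = 0.96), a branched-chain aminotransferase gene, AT4G32950 (r = 0.94), MCCA (r = 0.94), of leucine breakdown, and the unnamed probe set 249862_at (r = 0.94). ERD5 and GDH2 had r = 0.91 with each other, and 21 features were closer to ERD5 than GDH2 was.

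When the group means were removed, the deviations of DIN10 and BCAT-2 had r = 0.86 and r = 0.75 with those of GDH2 over the 11 arrays. For AT4G32950, MCCA and 249862_at this r with GDH2 was 0.74, 0.59 and 0.57. With ERD5 it was 0.78 for 252367_at and 0.70 for 250007_at, but 0.56 for 245794_at, 0.43 for 248606_at and 0.41 for AT1G67480. All these features were picked by r over the same 11 arrays, which already holds the deviations. The r of deviations is therefore no separate check of them. The named features nearest by this measure alone were AT2G27500, AT1G72950 and AT1G55240 for ERD5 (r of 0.94, 0.93 and 0.91) and AT4G35750, AT5G16110 and AT1G11050 for GDH2 (r of 0.92, 0.92 and 0.90). None of these 6 passed the test between groups (each at an adjusted p of 0.85 by limma). Taking the highest of 7000 correlations over 11 arrays yields high values in any case, and no test was made.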

How the data were processed

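The authors amplified the pulled-down RNA (Ovation Pico WTA System V2), hybridized it on ATH1 arrays and normalized probe intensities with GCRMA, whose version is not given in the sources used here. The deposited table holds 1 intensity per probe set and array on the linear scale, for 22810 probe sets and 11 arrays. Log2 was taken with no pseudocount. Control probe sets (64) and those with the same value on all arrays (2309) were left out. So were probe sets without a single gene name that were listed for several genes (448) or had a suffix marking shared probe sets (330). The probe set with the highest mean was used for each gene. This left 19524 features, 11884 of them with a gene name and 7640 kept without one. Names came from the platform table, RefSeq names (TAIR10.1) and, for 118 probe sets, the study's list. Both suffixes mark probe sets not designed to be shared, and whether ERD5 or GDH2 probes match a paralog was not tested.

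Group means were compared over all features in R 4.3.3 with limma 3.58.1 (lmFit, then eBayes), and a feature was called where its p, adjusted by Benjamini and Hochberg, fell under 0.1, the FDR cutoff of the methods. Limma stands in for the one-way test of the methods, which was run as an alternative. The rank product was not run, and the filters for protoplasting and cycloheximide effects were not repeated. Exact permutation tests over arrays used Python 3.11.15, numpy 2.4.6 and scipy 1.17.1. The limma step was tested on simulated data. Other alternatives were a trended and robust prior, array weights, median centring, quantile normalization, a minimum mean log2 intensity of 5, all probe sets, named features only, raising low values to a floor of 16, each array left out, and the replicate number as a block.

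The members, the lists and the tests were chosen with earlier results of these data known. Genes named are ERD5, GDH2, the matched genes of proline metabolism, of each other list those that pass and the 4 with the smallest p, and the features most like each member (5 over all arrays, 3 named ones by deviations). The 6 further enzymes, the glutamate receptors and the neighboring genes were added after the files were seen. The number of arrays limits the precision, and no batch is given in the labels.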

Additional observations from a re-analysis of the deposited data

Results flagged for a closer look

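The ERD5 intensity of 12715 in 4tU-bZIP1 replicate 4 lay far from the other arrays of its group. Its gap to the next array, 9961, was 0.631 of the whole range of the group, above the critical value of 0.625 for 6 samples. On the log2 scale the same gap was 0.581 of the range and stayed under it. Among 8 groups of arrays looked at in this way (ERD5, GDH2, PDH2 and DELTA-OAT in each condition) it was the only such value, and chance gives about 1 in 20 groups. GDH2 on the same array was 7377, close to the median of its group. Without this array ERD5 kept its call, with a log2 fold change of 1.18.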

How the results depend on the processing

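ERD5 kept its direction and its call in 12 of 13 alternatives other than leaving out 1 array, with log2 fold changes of 1.25 to 1.31, and in all 11 fits without 1 array (1.18 to 1.30). GDH2 kept its direction in all of them and its call in 10 of 13 and in 4 of 11 (0.61 to 0.76). The GDH2 call ended at a minimum mean log2 intensity of 5 (0.70), in the same fit without 4tU-bZIP1 replicate 1 (0.69, an alternative chosen after seeing the data) and with the replicate number as a block. That block, on replicates 1 to 5, gave 1.29 for ERD5 (adjusted p = 0.26 from limma) and 0.72 for GDH2 (adjusted p = 0.32 from limma), and within these pairs the change of ERD5 exceeded that of GDH2 by 0.57 (exact sign-flip p = 0.0625, the smallest 5 pairs allow). Under the block 0 features were called higher and 0 lower by limma, with 326 and 649 at an unadjusted p under 0.05. On the same arrays without the block 23 and 5 were called. Deviations of arrays with the same number correlated at 0.011 to 0.108, and 1 of 5 correlated best with its own number. These correlations ran over all 19524 features, of which 7000 had a mean log2 intensity of at least 5. With the block the SE was 0.101 for ERD5 and 0.0864 for GDH2, against 0.114 and 0.112 without it. Whether the numbers pair the samples is not settled by these values. The difference between the changes was 0.48 to 0.62 in the fits without 1 array.

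Against 32 features higher and 4 lower in the reported fit, the one-way test on linear intensities called 17 and 2, array weights 66 and 27, and fits without 1 array 17 to 30 and 1 to 11. Without 4tU-bZIP1 replicates 2, 4 and 5 and without 4tU-EV replicate 2, 19, 18, 17 and 19 were higher, and without 4tU-bZIP1 replicate 5 and 4tU-EV replicate 5, 1 and 11 were lower. A minimum mean of 5 left 1 lower and a floor of 16 gave 7 lower. Of the proline list 1 gene passed except under the block (0). Of the glutamate list 1 passed except at the minimum mean of 5 with or without replicate 1 (0), under the block (0) and in 7 of the 11 fits without 1 array (0, and 1 in the other 4, a range of 0 to 1). The causes of these changes were not tested. Few genes of the pathway could be matched, and for PDH2 and DELTA-OAT, with the errors given above, a change as large as that of ERD5 may not have been detectable.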

Other observations

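The matched genes near ERD5 and GDH2 on their chromosomes showed no call, and none of them was directly adjacent. By limma 0.184% of all features were called in either direction, so no call among so few genes is near the background. Of the 10 protein-coding genes on each side of ERD5 in the RefSeq order, 5 of 20 were matched to a feature, and none passed the test, with log2 fold changes between -0.13 and 0.049. Nearly all of these values lay at the low end of the arrays, as for bZIP42, 9 genes away, with means of 4.94 in 4tU-bZIP1 and 4.92 in 4tU-EV. Around GDH2 5 of 20 were matched, with changes of -1.18 to 0.38. The lowest was PMSR2, a methionine sulfoxide reductase gene 2 places from GDH2, with means of 19.5 in 4tU-bZIP1 and 43.7 in 4tU-EV (SE 0.22, adjusted p = 0.14 from limma). It was named after its value was seen, and it did not pass.

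Of 7 glutamate receptor-like channel genes with a name, none passed, with log2 fold changes between -0.21 and 0.14. This is near the background, since 0.184% of all features were called in either direction by limma. GLR1.2 averaged 57.2 ± 17.7 (SD, n = 6) with bZIP1 and 64.9 ± 15.1 (SD, n = 5) with the empty vector. The other 6 stayed at intensities of 11.5 or less on every array.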
